A study of Homo sapiens with 12 samples.

Results

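A set of 249 genes had its lowest level in tumor-initiating cells (TICs) in each of 4 lung cancer cell lines, below both TICs with PRKCI knocked down and the parental cells of the same line. The set was chosen from raw read counts. Levels in CPM were the read count over the library total times 1000000. A mean of at least 1 CPM over 12 libraries was required, and the TIC value had to lie below the knockdown and the parental value in every line. Of 22506 genes listed, 12774 reached the mean of 1 CPM and 251 of these met the rule, of which 2 were left out by name. The 249 members were 1.95% of the 12774 genes. Both conditions of the rule use the same TIC library, so shared TIC libraries favour such genes: a count that is low by error in a TIC library meets both conditions at once. The levels and differences that chose the members are therefore given as a description and without a test.

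The 12 libraries were RNA sequencing libraries of total RNA, 1 per line and state, from the established lines that the labels call H1703, H1299, CHAGO and CALU. The states were TICs with PRKCI knockdown, TICs, and parental cells, which the labels also call adherent. TICs are the cells of a tumor population that are able to start a new tumor, and the series title places these lines in lung squamous cell carcinoma. The labels do not say how TICs were grown or selected or how the knockdown was made, so a difference in culture between TICs and adherent parental cells and the TIC state itself cannot be told apart. Each state thus has n = 4, with the lines in the place of replicates. The p-values of comparisons between states set the mean difference against its variation from line to line. With 1 library per line and state, that variation also holds the noise of single libraries.

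The product of PRKCI is an atypical kinase of the protein kinase C family, aPKC iota, which works with PAR6 in cell polarity and is known as an oncogene of lung squamous cancer. Most members, 182 of 249, were in none of the 24 gene lists described here, and the other 67 came from 16 lists, DNA replication and repair, ribosome assembly, splicing, protein folding, nuclear transport, nucleotide synthesis and mitochondrial translation among them. Genes of these processes are used by nearly every cell type, and the levels of many follow growth and proliferation. Many such genes have promoters rich in C and G with short binding motifs for ETS factors, for MYC (the E-box) or for YY1.

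The promoters of 5 members are shown because they carry the motifs that were more frequent among the members than among other expressed genes. Each sequence runs 5′ to 3′ on the strand of the gene, from 250 bases before to 50 bases after the annotated start, in RefSeq on build GRCh38.p14. Capitals mark the ETS motif CCGGAAGT or its reverse complement ACTTCCGG, the E-box CACGTG, and the YY1 motif AAGATGGCG or its reverse complement CGCCATCTT. Their positions are on the plus strand at chr16:58392221-58392520 for GINS3 and chr5:132556727-132557026 for RAD50. Those on the minus strand lie at chr10:94362890-94363189 for NOC3L, chr4:158723347-158723646 for PPID and chr3:143001418-143001717 for LOC100289361.
GINS3: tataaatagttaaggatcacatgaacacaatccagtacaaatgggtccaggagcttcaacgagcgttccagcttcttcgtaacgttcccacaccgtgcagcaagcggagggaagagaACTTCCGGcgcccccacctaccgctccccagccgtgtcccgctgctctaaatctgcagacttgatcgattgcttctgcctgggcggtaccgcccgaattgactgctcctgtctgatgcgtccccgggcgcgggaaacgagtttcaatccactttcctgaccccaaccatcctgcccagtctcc
RAD50: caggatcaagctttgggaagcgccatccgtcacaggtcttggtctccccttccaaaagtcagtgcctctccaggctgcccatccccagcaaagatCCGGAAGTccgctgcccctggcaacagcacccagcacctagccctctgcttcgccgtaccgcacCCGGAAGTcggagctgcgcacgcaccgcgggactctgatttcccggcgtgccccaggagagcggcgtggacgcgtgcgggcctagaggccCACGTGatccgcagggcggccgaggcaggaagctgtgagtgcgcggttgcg
NOC3L: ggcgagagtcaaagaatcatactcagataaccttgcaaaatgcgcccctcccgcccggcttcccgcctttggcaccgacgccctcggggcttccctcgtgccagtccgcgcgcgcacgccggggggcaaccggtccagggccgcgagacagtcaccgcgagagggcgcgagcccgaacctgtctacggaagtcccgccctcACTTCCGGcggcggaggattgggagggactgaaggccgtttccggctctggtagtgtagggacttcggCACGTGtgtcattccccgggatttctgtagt
PPID: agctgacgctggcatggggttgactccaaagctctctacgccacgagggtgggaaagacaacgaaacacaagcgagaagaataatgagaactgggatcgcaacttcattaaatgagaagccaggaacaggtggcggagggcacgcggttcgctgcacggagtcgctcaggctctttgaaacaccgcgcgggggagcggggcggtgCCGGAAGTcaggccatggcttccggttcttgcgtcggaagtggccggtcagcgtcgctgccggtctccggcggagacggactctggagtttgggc
LOC100289361: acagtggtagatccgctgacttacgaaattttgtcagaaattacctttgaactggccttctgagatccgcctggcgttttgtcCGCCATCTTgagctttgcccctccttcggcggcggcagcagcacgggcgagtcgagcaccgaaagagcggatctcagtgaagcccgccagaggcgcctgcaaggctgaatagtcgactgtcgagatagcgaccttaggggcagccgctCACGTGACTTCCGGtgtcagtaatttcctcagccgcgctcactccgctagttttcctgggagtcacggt
In NOC3L the ETS motif begins 49 bases before the start and in PPID 45 bases before it. RAD50 holds the ETS motif at 2 places, 155 and 91 bases before its start. LOC100289361 holds all 3 motifs, and none of the printed matches overlap. A match is a description of letters and was not tested for binding.

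The targeted gene was low in the libraries labelled as knockdown. PRKCI had 58.7, 27.6, 22.3 and 36.6 CPM in knockdown TICs of H1703, H1299, CHAGO and CALU, 339, 219, 597 and 215 CPM in TICs, and 315, 329.9, 373 and 247 CPM in parental cells. The knockdown range does not overlap the other 2 ranges, which overlap each other. Values of each gene below follow the same order of lines. The edgeR quasi-likelihood log2 fold change was -3.15 (SE 0.37, adjusted p = 0.0489) in knockdown TICs over TICs and -3.07 (SE 0.37, adjusted p = 0.0275) in knockdown TICs over parental cells. Library totals ran from 21.2 to 91.8 M reads (M, mega). They were 21.2 to 36.1 M in H1703 and H1299 and 63.8 to 91.8 M in CHAGO and CALU. MALAT1 took 3.78% of the reads in H1703 knockdown TICs and 4.25% in H1703 TICs, and FN1 took 3.57% in CALU TICs, while the most abundant gene took 0.804% to 1.56% in the parental libraries. CPM values of all other genes move with such shares. With TMM scaling 208 of the 249 members still met the rule, and with DESeq2 size factors 189 did. Of 6 squamous markers, 6 reached 1 CPM in at least 1 line in knockdown TICs, 4 in TICs (all but KRT5 and KRT14) and 4 in parental cells (all but KRT5 and KRT6A), and their summed level ran from 1.05 to 120.4 CPM in knockdown TICs, 3.57 to 68.5 CPM in TICs and 0 to 26.7 CPM in parental cells. The summed level of 5 leukocyte markers ran from 143 to 817 CPM in knockdown TICs, 95.3 to 641 CPM in TICs and 1.25 to 351 CPM in parental cells. PTPRC, CD3E and MS4A1 were under 1 CPM in all 12 libraries, CD14 was under 1 CPM in all TIC and parental libraries, and CD68 reached 1 CPM in at least 1 line in each state. The part of these levels in the results was not tested. These are bulk libraries, so fewer cells of a type and less RNA per cell cannot be told apart.

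The members' differences were of modest size. Their median log2 ratio of TICs over parental cells, on library-total CPM, was -0.76 for H1703, -0.97 for H1299, -0.51 for CHAGO and -0.87 for CALU, beside -0.10, 0.03, -0.07 and -0.03 over all genes. The median log2 ratio of knockdown TICs over TICs was 0.50, 0.66, 0.32 and 0.52 in the same order of lines, beside 0.01, -0.03, -0.03 and -0.06 over all genes. On this scale both differences were narrowest in CHAGO. With the authors' mode-normalized values the medians of TICs over parental cells were -0.47, -0.56, -0.70 and -0.67, with CHAGO the widest and those of H1703 and H1299 more than 1.5 times narrower than on CPM, beside 0.18, 0.44, -0.26 and 0.17 over all genes.

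For each member the weakest of its 8 gaps (to the knockdown and the parental library in 4 lines) shows how narrowly it met the rule. The median weakest gap was 0.10 on the log2 scale, and 96 members had a weakest gap under 5%. A gap of at least 1.25-fold in all 8 was held by 35 members and one of at least 1.5-fold by 12. The narrowest gap lay between TICs and knockdown TICs in 159 members and between TICs and parental cells in 90. CHAGO held the narrowest gap for 94 members, H1703 for 58, CALU for 56 and H1299 for 41. Just inside the rule stood DNMT3B, RPS6KA5 and FGFR1OP2, with weakest gaps of 0.00125, 0.00230 and 0.00313 on the log2 scale, and just outside stood SPAG1, RPAP3 and WIPI2, at -0.00178, -0.00199 and -0.00230. At the minimum of 1 CPM the nearest members were PMS2P11, ZC3H10 and RASGRF2 at means of 1.04, 1.12 and 1.16 CPM, and the nearest genes left out were CHCHD5, SNORD35B and LOC155060 at 0.886, 0.532 and 0.333 CPM.

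The size of the set depends on the order of states that is asked for. By the same rule, 259 genes had the knockdown library lowest in each line and 167 had it highest. The TIC library was highest in each line for 229 genes. The parental library was lowest for 342 genes and highest for 628. The scaling matters too: 139 genes met the rule with the authors' mode-normalized values in place of CPM, and 110 members met it under all 4 scalings that were tried. Genes with TICs lowest were about as many as those with knockdown TICs lowest, and fewer than those with parental cells lowest or highest.

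Several of the genes with the widest gaps had few reads or differed strongly between lines, while CYB5D1, given below, had 549 to 5250 reads per library. RASGRF2, a guanine nucleotide exchange factor for Ras, had 2, 7, 53 and 357 reads in knockdown TICs of H1703, H1299, CHAGO and CALU, 0, 2, 0 and 2 reads in TICs, and 17, 32, 184 and 355 reads in parental cells. Its TIC libraries were at or near 0 in all 4 lines. GPR75, a G protein-coupled receptor, had 9.04, 1.56, 3.73 and 0.659 CPM in knockdown TICs, 0.179, 0.569, 0.925 and 0.120 CPM in TICs and 13.1, 4.46, 13.7 and 0.534 CPM in parental cells. The ranges of the states of GPR75 overlap, and CALU was the lowest line in each state.

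NRG1, neuregulin 1, the ligand of the receptors ERBB3 and ERBB4, had 0.507, 7.56, 0.330 and 86.7 CPM in knockdown TICs, 0.134, 4.19, 0.0840 and 12.4 CPM in TICs, and 3.78, 10.3, 2.15 and 48.0 CPM in parental cells. CALU was the highest line for NRG1 in all 3 states, and the knockdown library exceeded the parental one only there. PLEKHH1 had 2.45, 47.4, 3.84 and 4.33 CPM in knockdown TICs, 0.0893, 8.25, 0.204 and 0 CPM in TICs, and 29.6, 16.4, 5.77 and 2.66 CPM in parental cells. Its TIC value in H1299 lies above the knockdown values of the other 3 lines. CYB5D1 had 46.8, 58.3, 43.5 and 21.8 CPM in knockdown TICs, 24.5, 22.0, 27.9 and 11.6 CPM in TICs, and 62.8, 62.1, 82.3 and 18.2 CPM in parental cells, a gap of at least 1.56-fold in each line. A total of 11 members had no read in the TIC library of at least 1 line.

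The share of a list's genes (those with a mean of at least 1 CPM) that were members is given beside the 1.95% over all genes and was not tested. Over all 12774 genes, 10.7% had TICs below parental cells in 4 lines and 6.94% had knockdown TICs above TICs in 4 lines. Where a list's counts for these 2 conditions are given, they stand against those shares, likewise with no test. The lists were chosen with earlier results of these data known. The edgeR test over all 14008 genes called 4 genes in TICs against parental cells (0.0286%, among them IDS and KLHL24, higher, and VGLL3, lower) and 2 in knockdown TICs against TICs (0.0143%: MMP3 higher, PRKCI lower), with no member among them. Leaving out a line left 0 calls in TICs against parental cells and 0 (1 without CHAGO) in knockdown TICs against TICs. At an unadjusted p under 0.05 these were 11.8% of all genes and 155 members for TICs against parental cells, and 4.28% and 94 members for knockdown TICs against TICs. The rule used both contrasts, so nothing is read from those counts of members.

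Of 61 genes of the start of S phase and DNA replication, 31 (50.8%, against 10.7% of all genes) had TICs below parental cells in 4 lines and 7 (11.5%, against 6.94%) had knockdown TICs above TICs in 4 lines. The 6 that met both (9.84%) were GMNN, GINS3, SLBP, TIPIN, E2F2 and FEN1. GMNN, geminin, the inhibitor of replication licensing by CDT1, had 23.1, 21.2, 34.8 and 9.80 CPM in knockdown TICs, 9.64, 9.31, 24.4 and 4.55 CPM in TICs, and 66.6, 35.9, 38.3 and 16.7 CPM in parental cells. Knockdown TICs lay between the other 2 states for GMNN in all 4 lines. GINS3, a subunit of the GINS complex of the replicative helicase, had 4.01, 5.53, 26.5 and 1.90 CPM in knockdown TICs, 0.268, 1.64, 19.5 and 1.57 CPM in TICs, and 6.27, 5.13, 26.2 and 7.45 CPM in parental cells. CHAGO stood above the other lines of GINS3 in each state, and the ranges of the states overlap.

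SLBP, the stem-loop binding protein of replication-dependent histone mRNA, had 68.8, 123, 101 and 85.4 CPM in knockdown TICs, 44.1, 85.9, 82.5 and 47.5 CPM in TICs, and 108, 106, 88.7 and 105 CPM in parental cells. Its TIC and parental ranges do not overlap, by the narrow distance between 85.9 CPM in H1299 TICs and 88.7 CPM in CHAGO parental cells. Of 22 histone genes of that class, 14 (63.6%, against 10.7% of all genes) were below parental cells in TICs of all 4 lines. In none of the 22 were knockdown TICs above TICs in all 4 lines, where 6.94% of all genes were, a share that amounts to few genes in a list of this size. HIST4H4, a histone H4 gene that this list does not hold, was a member, named after its values were seen. TIPIN, of the fork protection complex, had 18.6, 20.6, 39.6 and 10.9 CPM in knockdown TICs, 16.7, 8.64, 37.1 and 8.44 CPM in TICs, and 46.4, 42.0, 55.9 and 14.1 CPM in parental cells. In CPM, the knockdown value of TIPIN was closer to that of TICs than to that of parental cells in all 4 lines. As a log2 ratio this was not so in H1299 (1.25 over TICs and -1.03 over parental cells). In CALU the log2 ratios were nearly equal in size (0.372 and -0.369). None of the 55 genes listed for G2 and mitosis was a member: 10 (18.2%, against 10.7% of all genes) had TICs below parental cells in 4 lines and 1 (1.82%, against 6.94%) had knockdown TICs above TICs in 4 lines. SKA3, a kinetochore gene that this list does not hold, was a member.

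**Figure D1:**
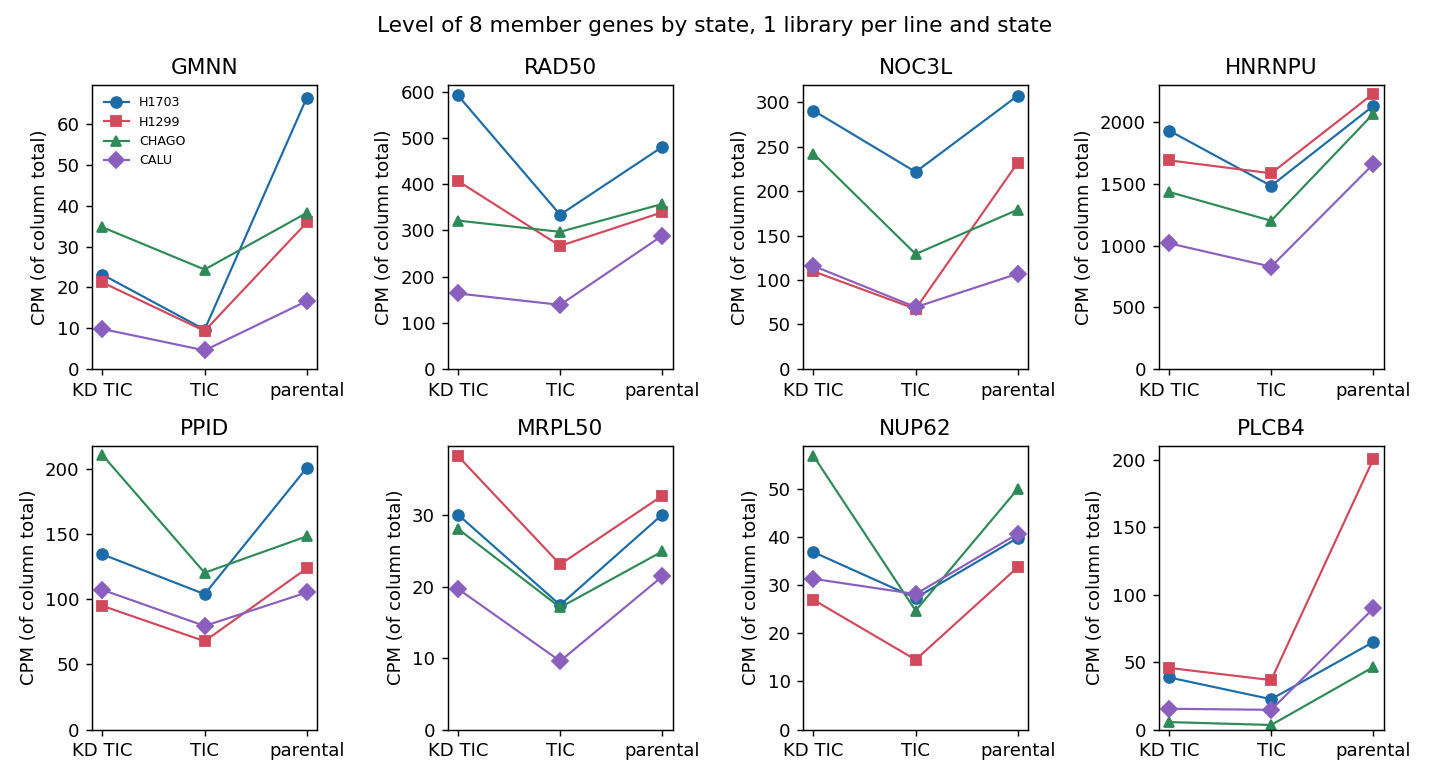
Level of 8 members in CPM of the library total (vertical axis, starting at 0) in PRKCI knockdown TICs, TICs and parental cells (horizontal axis), with 1 line and marker per cell line and 1 library per point. The TIC point is the lowest of each line by the rule, and the height of the return differs by gene: MRPL50 in knockdown TICs was above or close to the parental value in all 4 lines, while PLCB4 was below it in all 4.

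Of 35 genes of homologous recombination and the Fanconi anemia pathway, 18 (51.4%, against 10.7% of all genes) had TICs below parental cells in 4 lines. Knockdown TICs were above TICs in 4 lines for 4 (11.4%, against 6.94%), and these 4 were the members (11.4%): RAD50, FANCM, BRCA1 and RMI1. RAD50, the ATPase of the MRE11 complex that binds DNA ends, had 592, 407, 321 and 163 CPM in knockdown TICs, 334, 266, 297 and 139 CPM in TICs, and 481, 339, 357 and 289 CPM in parental cells. In H1703 and H1299 the knockdown value of RAD50 exceeded the parental one. In CHAGO and CALU the knockdown value of RAD50 was below the parental one and little above the TIC value, with the weakest gap in CHAGO. BRCA1 had 146, 73.8, 108 and 87.4 CPM in knockdown TICs, 102, 42.0, 106 and 29.4 CPM in TICs, and 247, 85.1, 217 and 117 CPM in parental cells. The knockdown and TIC libraries of CHAGO differed by 1.02-fold for BRCA1, its weakest gap.

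FANCM, the translocase that binds stalled forks, had 16.5, 36.5, 129.6 and 31.0 CPM in knockdown TICs, 10.6, 10.6, 123 and 21.4 CPM in TICs, and 32.5, 35.2, 167 and 55.5 CPM in parental cells, with CHAGO the highest line in each state. PRKDC, the catalytic subunit of the DNA-dependent protein kinase of end joining, had 948, 1624, 416 and 635 CPM in knockdown TICs, 701, 1339, 362 and 460.3 CPM in TICs, and 1052, 1905, 746 and 793 CPM in parental cells. PRKDC in knockdown TICs lay between the other 2 states in all 4 lines. Of 21 genes of mismatch and base excision repair 1 was a member, MSH3, and of 21 cohesin, condensin and SMC genes 2 were, SMC5 and NCAPG2. TICs were below parental cells in 4 lines for 7 (33.3%) and 11 (52.4%) of these genes, against 10.7% of all genes. Knockdown TICs were above TICs in 4 lines for 3 genes of each list (14.3%, against 6.94%).

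Ribosome assembly gave 7 of 69 genes (10.1%): NOC3L, DKC1, HEATR1, UTP14A, DDX18, NOP16 and LTV1. There 27 genes (39.1%, against 10.7% of all genes) had TICs below parental cells in 4 lines and 15 (21.7%, against 6.94%) had knockdown TICs above TICs in 4 lines. NOC3L, needed for large ribosomal subunit assembly, had 291, 109.7, 242 and 116 CPM in knockdown TICs, 222, 67.4, 129 and 69.5 CPM in TICs, and 307, 232, 179 and 107 CPM in parental cells. CHAGO and CALU had more NOC3L after knockdown than in parental cells and H1299 had less. DKC1, dyskerin, the pseudouridine synthase of H/ACA particles and of telomerase, had 645, 236, 474 and 169 CPM in knockdown TICs, 457, 162, 384 and 116 CPM in TICs, and 679, 626, 471 and 287 CPM in parental cells. In H1299 its knockdown value stayed far nearer to TICs than to parental cells. HEATR1, a factor of pre-ribosomal RNA transcription and processing, had 285, 144, 374 and 175 CPM in knockdown TICs, 250.4, 87.5, 308 and 155 CPM in TICs, and 314, 234, 361 and 187 CPM in parental cells. Its knockdown values were between TICs and parental cells in 3 lines and above both in CHAGO.

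None of 15 genes that host small nucleolar RNAs (snoRNAs) was a member, while 3 snoRNAs were: SNORA8, SNORD25 and SNORA45. snoRNAs lie within introns of other genes, and how the counting dealt with reads shared with a host gene is not given in the sources used here, so their values are uncertain. Among members matched to the annotation, the remaining non-coding ones were LOC100289361, annotated as a long non-coding RNA, and 8 pseudogenes. A further 10 members had no match, so whether they are coding is not given. Of 239 members matched to the RefSeq annotation, 227 were protein coding. A pseudogene copy named after the gene was annotated for 39 members (15.7%, against 11.05% of expressed genes), MRPL50, HPRT1, CBX3 and SLMO2 among them, and the counting could have split reads between such copies.

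Splicing factors and hnRNPs gave 5 of 84 genes (5.95%): HNRNPU, HNRNPF, RBM3, SRSF5 and LSM6. In this list 39 genes (46.4%, against 10.7% of all genes) had TICs below parental cells in 4 lines. Only 7 (8.33%, close to the 6.94% of all genes) had knockdown TICs above TICs in 4 lines. HNRNPU, a nuclear RNA-binding scaffold protein, had 1934, 1692, 1436 and 1019 CPM in knockdown TICs, 1485, 1586, 1202 and 829 CPM in TICs, and 2134, 2233, 2069.7 and 1662 CPM in parental cells. The TIC and parental ranges of HNRNPU do not overlap, and knockdown TICs were below parental cells in all 4 lines. HNRNPF, a regulator of alternative splicing, had 245, 183, 148 and 97.0 CPM in knockdown TICs, 171, 169.7, 139 and 83.1 CPM in TICs, and 369.9, 269.9, 173 and 139 CPM in parental cells. HNRNPF in knockdown TICs was nearer to TICs than to parental cells in all 4 lines. PAPOLA, the poly(A) polymerase of pre-mRNA, had 1182, 2025, 1186 and 986 CPM in knockdown TICs, 888, 1586, 999.8 and 639 CPM in TICs, and 1140.3, 1888, 1056 and 883 CPM in parental cells. PAPOLA thus had its highest value after knockdown in each line, as did SCFD1, SLC35E3, SNORA45 and FGFR1OP2, of which the first 3 were named after their values were seen.

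Protein folding gave the highest share of members among the lists, 6 of 43 genes (14.0%): PPID, DNAJC7, DNAJC2, DNAJC9, CCT3 and PTGES3. PPID, cyclophilin 40, a co-chaperone of HSP90, had 134, 94.9, 210.4 and 107 CPM in knockdown TICs, 104, 67.8, 120.2 and 79.5 CPM in TICs, and 201, 124, 148 and 105 CPM in parental cells. Knockdown exceeded parental PPID in CHAGO and CALU and not in H1703 or H1299. DNAJC7, which binds both HSP70 and HSP90, had 345, 165, 179 and 152 CPM in knockdown TICs, 262, 85.8, 152 and 101 CPM in TICs, and 318, 155, 185 and 199.9 CPM in parental cells. Its knockdown values were above the parental ones in H1703 and H1299. Of the 43 chaperone genes, 14 (32.6%, against 6.94% of all genes) had knockdown TICs above TICs in 4 lines and 11 (25.6%, against 10.7%) had TICs below parental cells in 4 lines.

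Nucleotide synthesis gave 4 of 31 genes (12.9%): HPRT1, ADSL, UMPS and IMPDH1. There 18 (58.1%, against 10.7% of all genes) had TICs below parental cells in 4 lines. Knockdown TICs were above TICs in 4 lines for 5 (16.1%, against 6.94%). HPRT1, of purine salvage, had 48.3, 60.5, 66.7 and 63.9 CPM in knockdown TICs, 37.8, 52.6, 53.0 and 39.5 CPM in TICs, and 59.8, 76.8, 55.2 and 100.2 CPM in parental cells. The TIC and parental ranges of HPRT1 do not overlap, and the knockdown range overlaps both. Among 37 tRNA synthetases 3 were members (8.11%): YARS2, IARS and TARS. For 12 of the 37 (32.4%, against 10.7%) TICs were below parental cells in 4 lines. For 5 (13.5%, against 6.94%) knockdown TICs were above TICs in 4 lines. YARS2, the mitochondrial tyrosyl-tRNA synthetase, had 32.9, 53.6, 48.4 and 74.6 CPM in knockdown TICs, 30.7, 40.1, 27.4 and 41.6 CPM in TICs, and 58.9, 45.1, 41.2 and 117 CPM in parental cells. H1703 hardly differed between knockdown TICs and TICs in YARS2.

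Mitochondrial genome maintenance and translation gave 8 of 101 genes (7.92%): MRPL50, PNPT1, MRPS23, SSBP1, GFM2, C14orf156, MTERF and MRPL32. In this list 33 genes (32.7%, against 10.7% of all genes) had TICs below parental cells in 4 lines. Knockdown TICs were above TICs in 4 lines for 15 (14.9%, against 6.94%). MRPL50, a protein of the large mitochondrial ribosomal subunit, had 30.1, 38.3, 28.1 and 19.7 CPM in knockdown TICs, 17.4, 23.1, 17.1 and 9.60 CPM in TICs, and 30.1, 32.8, 24.95 and 21.5 CPM in parental cells. Its weakest gap was 1.42-fold, and knockdown and parental values were close in each line. PNPT1, a polyribonucleotide phosphorylase of mitochondrial RNA decay, had 18.3, 109, 70.6 and 34.9 CPM in knockdown TICs, 12.7, 65.3, 57.5 and 24.6 CPM in TICs, and 32.3, 71.9, 87.1 and 59.5 CPM in parental cells. SSBP1, the single-stranded DNA binding protein of the mitochondrial genome, had 213, 345, 680.0 and 287 CPM in knockdown TICs, 160.0, 252, 629 and 246 CPM in TICs, and 236, 420.2, 787 and 397 CPM in parental cells. SSBP1 in knockdown TICs was between the other 2 states in all 4 lines.

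Nuclear transport gave 4 of 52 genes (7.69%): NUP50, NUP62, NUP160 and CSE1L. NUP62, a central channel protein of the nuclear pore, had 36.8, 26.9, 56.8 and 31.3 CPM in knockdown TICs, 27.3, 14.5, 24.7 and 28.1 CPM in TICs, and 39.8, 33.7, 49.95 and 40.6 CPM in parental cells. The TIC and parental ranges of NUP62 do not overlap, and the knockdown range overlaps both. CSE1L, the exporter that returns importin alpha to the cytoplasm, had 723, 634, 1468 and 607 CPM in knockdown TICs, 544, 450.1, 1358 and 426 CPM in TICs, and 820.1, 953, 1486 and 1042 CPM in parental cells. CHAGO was the highest line for CSE1L in each state.

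Other lists gave few members or none. RNA modification gave 2 of 52 genes (TRUB1 and RG9MTD1), translation factors 2 of 51 (EIF1AX and ETF1), mitochondrial import 1 of 34 (GRPEL1) and the proteasome 1 of 41 (PSME3). C2H2 zinc finger genes gave 11 of 472, or 2.33%, close to the share over all genes. ZNF828, a zinc finger gene, had 70.9, 37.99, 75.2 and 51.1 CPM in knockdown TICs, 31.6, 26.6, 29.1 and 13.5 CPM in TICs, and 43.1, 32.7, 78.0 and 25.8 CPM in parental cells. Its knockdown and TIC ranges do not overlap. No member came from 84 centrosome and cilium genes, 26 YAP and TEAD targets, 16 Hedgehog pathway genes, 20 atypical PKC and polarity genes, or 15 stem cell markers. None of the 16 genes of the Hedgehog pathway, which the series title links to PRKCI, met either condition in 4 lines; with 10.7% and 6.94% of all genes meeting them, so short a list would hold few.

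**Figure D2:**
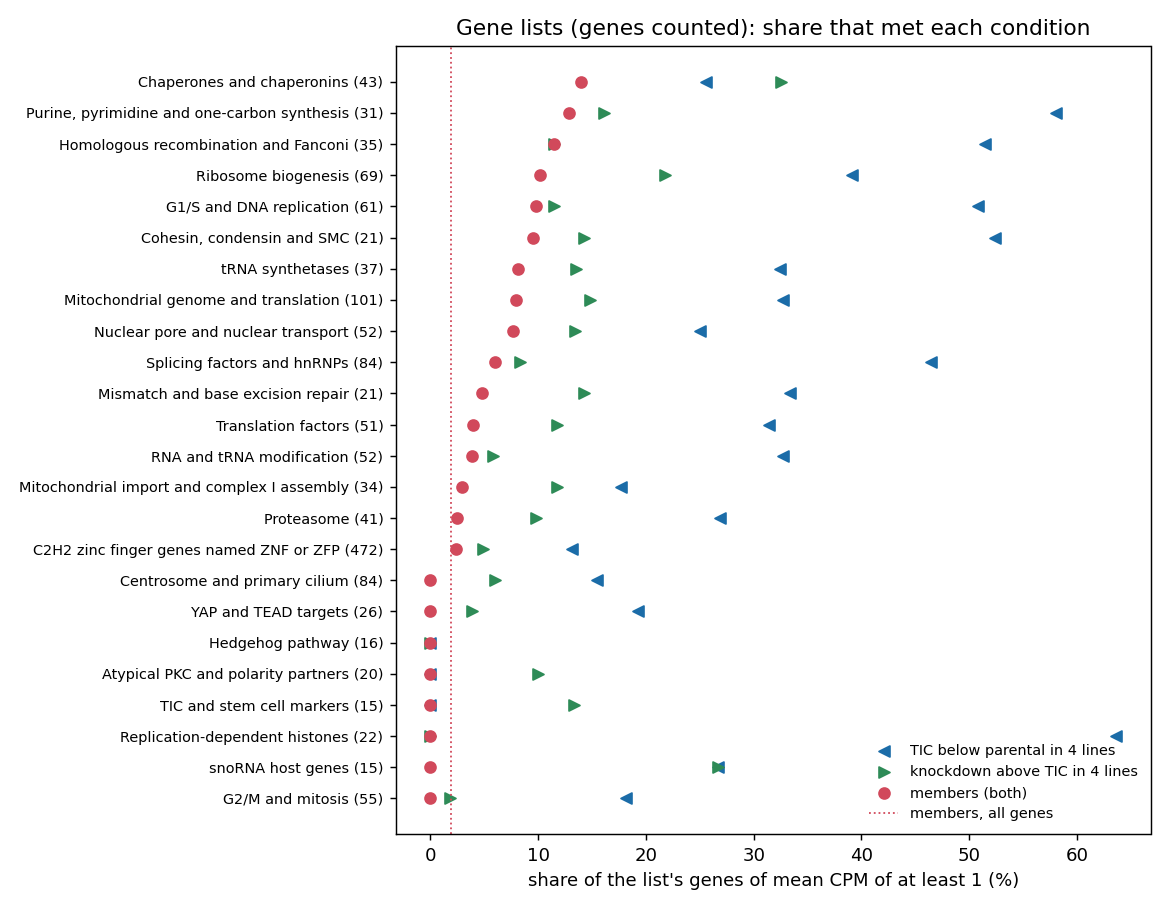
Share of each list's genes of mean CPM of at least 1 (horizontal axis, percent; number of genes in brackets) that were members (circles), that had TICs below parental cells in 4 lines (left-pointing triangles) or knockdown TICs above TICs in 4 lines (right-pointing triangles). The dotted line is the 1.95% of all genes that were members; chaperones stand at the top with 14.0%, and 8 lists hold no member.

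The rule does not fix whether knockdown TICs lie above or below parental cells, and this comparison was tested over all genes. The rule did use the values of both states, so the members' counts, shares and medians here are a description that is not independent of the choice. The comparison asks how far the members stood from the parental level once PRKCI was knocked down. The edgeR test called 5 of 14008 genes in knockdown TICs against parental cells (0.0357%, among them KLHL24 and MMP3, higher, and CRIM1 and PRKCI, lower), and none of the 249 members, whose smallest adjusted p was 0.139. At an unadjusted p under 0.05 stood 18 members (7.23%) and 10.7% of all genes. DESeq2 and limma voom each called 2 of the 249 members, PLCB4 and RBM3, and 395 and 152 of all 14008 genes. With both methods that is a smaller share of the members than of all genes. Without H1703, H1299 or CALU no gene was called in this comparison, and without CHAGO 2 were. A count of 0 does not show that members returned to the parental level.

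The median log2 fold change of knockdown TICs over parental cells was -0.17 over the members (quartiles -0.42 and 0.07) and -0.05 over all tested genes (quartiles -0.54 and 0.43), and 77 members (30.9%) were on the higher side, against 47.1% of all genes. Without H1299 the members' median was -0.07. A difference beyond 1 on the log2 scale in either direction was held by 13 members (5.22%) and by 24.8% of all genes. The rule used the values of both states, so the members' shares are not independent of the choice. Why the members' spread was narrower than that of all genes was not tested. By line, the members' median log2 ratio was -0.14 for H1703, -0.30 for H1299, -0.16 for CHAGO and -0.27 for CALU, beside -0.06, 0.00, -0.12 and -0.12 over all genes. With the authors' mode-normalized values the members' medians were 0.05, 0.00, -0.40 and 0.00, so the direction was not kept in H1703, H1299 and CALU, while those of all genes moved to 0.13, 0.28, -0.36 and 0.15. The members' median lay below that of all genes in each line with either scaling. Knockdown TICs exceeded parental cells in none of the 4 lines for 51 members (20.5%, against 14.2% of expressed genes). They did so in 1 line for 90 (36.1%, against 28.3%) and in 2 lines for 68 (27.3%, against 30.9%). For 35 members it was 3 lines (14.1%, against 19.5%), and for 5 it was 4 lines (2.01%, against 7.05%).

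**Figure D3:**
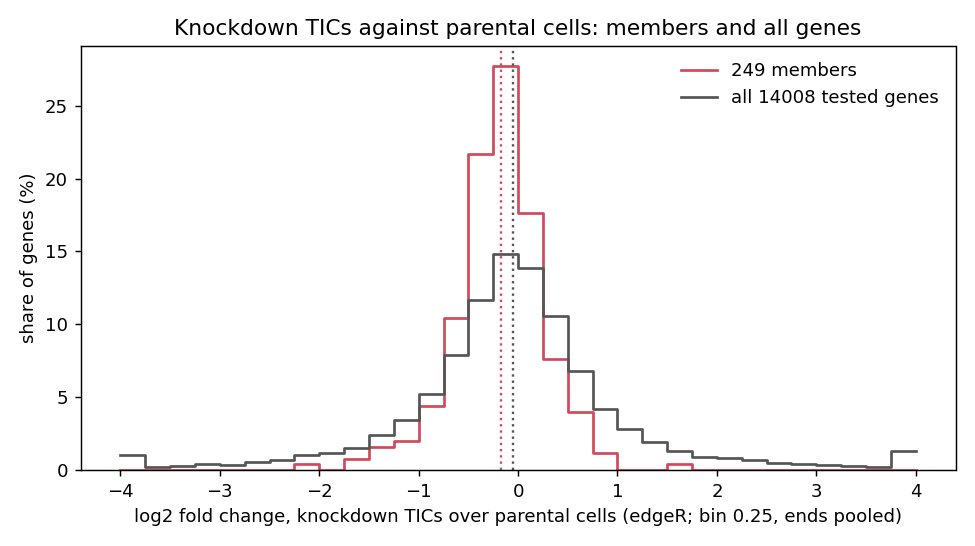
Share of genes (vertical axis, percent) by log2 fold change of PRKCI knockdown TICs over parental cells (horizontal axis, edgeR) for the 249 members (red) and all 14008 tested genes (grey), with dotted lines at the medians of -0.17 and -0.05. The members' distribution is narrower and lies slightly to the left.

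Farthest below the parental level was PLCB4, phospholipase C beta 4, with 38.7, 45.8, 5.63 and 15.5 CPM in knockdown TICs, 22.6, 36.7, 3.47 and 14.7 CPM in TICs, and 65.0, 201, 46.4 and 89.8 CPM in parental cells. The knockdown and parental ranges of PLCB4 do not overlap, and its log2 fold change was -2.12 (SE 0.38, adjusted p = 0.139, edgeR). RBM3, a cold-inducible RNA-binding protein, had 57.5, 139, 18.3 and 242 CPM in knockdown TICs, 51.1, 125, 17.4 and 218 CPM in TICs, and 261, 241, 77.7 and 471 CPM in parental cells, with a log2 fold change of -1.48 (SE 0.27, adjusted p = 0.139, edgeR). For RBM3 the knockdown values were near those of TICs and below those of parental cells in every line. SKA3, of the kinetochore SKA complex, had 40.1, 27.6, 42.4 and 11.2 CPM in knockdown TICs, 36.7, 20.2, 33.7 and 9.13 CPM in TICs and 113, 92.2, 47.4 and 21.5 CPM in parental cells. The knockdown value of SKA3 was under the parental one in each line, and its log2 fold change was -1.07 (SE 0.33, adjusted p = 0.293, edgeR).

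On the higher side TXNDC9, a thioredoxin domain protein that binds the chaperonin CCT, had 22.8, 55.4, 84.0 and 85.4 CPM in knockdown TICs, 17.7, 24.4, 38.6 and 41.2 CPM in TICs, and 24.3, 34.2, 49.5 and 50.4 CPM in parental cells. Knockdown exceeded parental TXNDC9 in 3 of 4 lines, and the log2 fold change was 0.61 (SE 0.25, adjusted p = 0.427, edgeR). FGFR1OP2 had 187, 187, 51.4 and 269.6 CPM in knockdown TICs, 134, 154, 16.8 and 241 CPM in TICs, and 159, 165, 24.9 and 242 CPM in parental cells. Its TIC and parental values in CALU were nearly equal, which makes it one of the narrowest members.

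Levels of many members differed between lines. The edgeR test of the line term, in which the 3 states of a line stand in for its replicates, called 145 members (58.2%) beside 6359 of 14008 genes (45.4%). Without H1703 it called 94 members (37.8%, against 31.0% of all genes), without H1299 118 (47.4%, against 38.3%), without CHAGO 95 (38.2%, against 32.1%) and without CALU 103 (41.4%, against 34.9%). Members also had more reads than expressed genes at large, with a median mean level of 49.2 CPM against 22.1 CPM, not divided by gene length, and whether this accounts for the higher share was not tested. RECQL, a DNA helicase of the RecQ family, had 402, 226, 40.1 and 563 CPM in knockdown TICs, 345, 206, 36.7 and 422 CPM in TICs, and 387, 210.4, 44.1 and 424 CPM in parental cells (adjusted p = 1.91e-05 for the line term, edgeR). CHAGO was the low line for RECQL in each state and the high line for CBX3 (adjusted p = 3.82e-05) and SLMO2 (adjusted p = 2.05e-05), both in the same test. CBX3, heterochromatin protein 1 gamma, had 219, 173, 1052 and 453 CPM in knockdown TICs, 184, 152, 889 and 344 CPM in TICs, and 269.6, 221, 961 and 498 CPM in parental cells.

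The rule was also applied with 1 line left out at a time. Genes were chosen by the same rule on 3 lines, and the share with the TIC library lowest was then read in the line left out. The choice gave 575 genes without H1703, 480 without H1299, 618 without CHAGO and 535 without CALU. Of these, 43.3%, 51.9%, 40.3% and 46.5% had the TIC library lowest in the line left out, beside 31.9%, 31.0%, 29.7% and 28.1% of all genes there. TICs were below parental cells for 64.5%, 72.1%, 61.0% and 67.7% of the chosen genes, beside 50.1%, 47.0%, 51.9% and 48.8% of all genes. Knockdown TICs were above TICs for 54.6%, 62.3%, 58.9% and 60.9%, beside 46.6%, 46.5%, 46.1% and 44.3%. The genes that met the order in the line left out are by construction the same 249 members each time, so these shares describe how many genes chosen on 3 lines became members and are no independent support for the set. The minimum of 1 CPM used all 4 lines, and the TIC library of the line left out is again shared by both conditions.

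**Figure D4:**
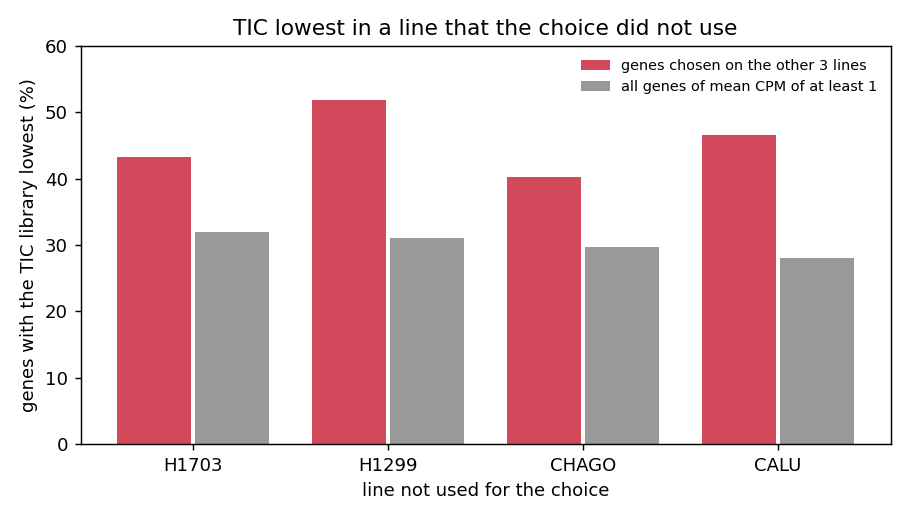
Share of genes with the TIC library lowest (vertical axis, percent) in the cell line that the choice did not use (horizontal axis), for genes chosen on the other 3 lines (red) and for all genes of mean CPM of at least 1 (grey). The red bars stand between 40.3% and 51.9% and the grey bars between 28.1% and 31.9%.

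The promoter sequences carry information that the rule did not use. Of the 249 members 200 matched a promoter in RefSeq, as did 10005 of the expressed genes (mean of at least 1 CPM), and 14 motifs were searched on both strands of the same 300 bases. The ETS motif CCGGAAGT was in 36 members (18.0%), in 8.71% of expressed genes, and in 4.44% of all 27305 promoters. Among expressed genes of at least 10 CPM the share was 9.97%, and among the genes chosen for the other 5 orders of states it ran from 4.28% to 11.5%. Besides the promoters printed above, ETS matches stood in the 300-base promoters of DNAJC7, DNAJC2, NUP160, SSBP1, GFM2, LTV1 and SRSF5. GABPB1, the beta subunit of an ETS factor complex with GABPA, was itself a member, named after its values were seen. Levels of other ETS factors are not given here, and a link between GABPB1 and the motif was not tested.

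The E-box CACGTG was in 36 members (18.0%), in 10.04% of expressed genes and in 7.43% of all promoters, and in 16.9% of the genes with knockdown TICs highest. The YY1 motif AAGATGGCG was in 17 members (8.50%), in 4.07% of expressed genes and in 1.85% of all promoters, and in 8.09% of the genes with knockdown TICs highest. At least 1 of the 3 motifs was in 73 members (36.5%) and in 20.9% of expressed genes, and 11 members held both the ETS motif and the E-box. These shares were not tested, and the 3 motifs were singled out after the 14 shares were seen. The median GC content was 64.5% in members and 65% in expressed genes.

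The other 11 motifs differed from expressed genes by fewer percentage points, although as a ratio TTTGGCGC and the AP-1 and GLI motifs differed by more than the 3 above. The GC box GGGCGG was in 67.0% of members and 69.3% of expressed genes, and the CCAAT box in 36.0% and 37.0%. E2F motifs were in few promoters: TTTCCCGC in 3.0% of members and 2.66% of expressed genes, and TTTGGCGC in 2.50% and 1.13%. The NRF1 motif was in 3.0% and 2.36%, CRE sites (TGACGTCA) in 5.0% and 3.38%, the TATA box TATAAA in 7.0% and 6.12%, the cell cycle homology region TTTGAA in 11% and 10.2%, and the TEAD motif GGAATG in 10.5% and 10.7%. The AP-1 motif TGANTCA was in 2.0% and 4.52%. The GLI motif GACCACCCA was in 0 of 200 member promoters and 0.24% of expressed genes, so no match was the usual outcome for any gene.

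**Figure D5:**
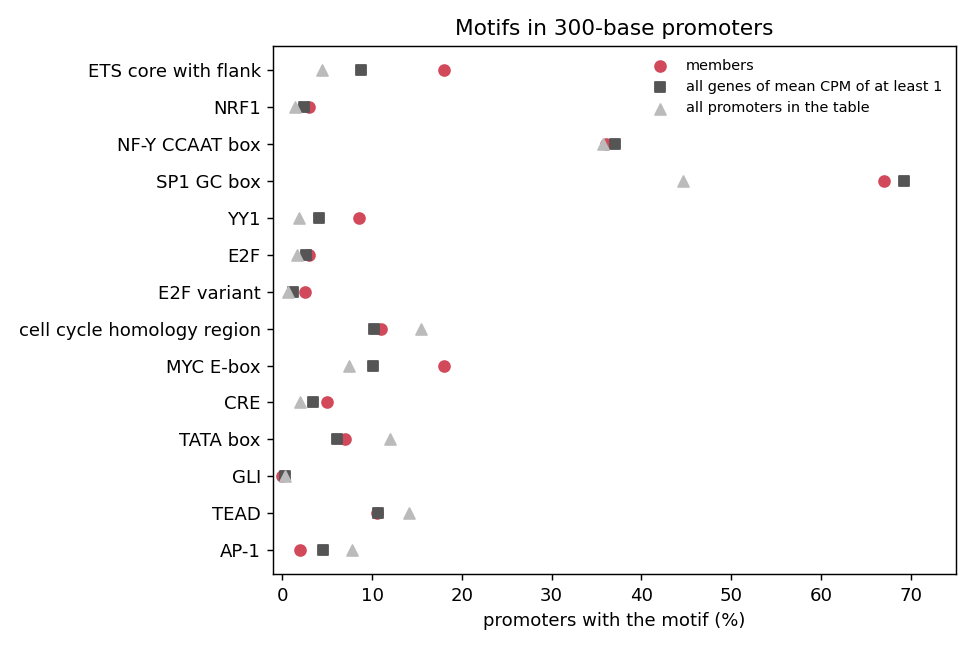
Share of promoters of 300 bases (horizontal axis, percent) that hold each of 14 motifs on either strand, for the 200 members with a promoter (circles), all expressed genes (squares) and all promoters in the table (triangles). ETS, E-box and YY1 differ from expressed genes by the most percentage points, with the members at 18.0%, 18.0% and 8.50%.

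Members also tended to have a close neighbour on the opposite strand. A gene starting within 1000 bases and running the other way was found for 69 of the 200 members (34.5%), against 24.0% of expressed genes, a description without a test. In 1 pair both genes were members, the non-coding LOC100289361 and U2SURP, a splicing protein of the U2 particle. Reads of such neighbours cannot be told apart if strand was not used in counting, which is not given in the sources used here. By chromosome, 17 members (7.11% of those matched) lay on chromosome 14 against 3.42% of expressed genes, 11 (4.60%) on chromosome 20 against 2.57%, and 8 (3.35%) on chromosome 19 against 6.40%.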

How the data were processed

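The submitters' processing notes name CASAVA 1.4, TopHat 1.4, HTSeq 0.5.3p3 and genome build hg19, without roles. The deposited table holds whole read counts, 1 column per library and 1 line per gene, per the file headers. A second table deposited by the authors holds mode-normalized values, treated as a score: each count had been multiplied by a factor of its library and rounded. The RNA kit was Qiagen RNeasy with a NuGEN library kit, per the labels' protocols. Columns were matched to samples by name; the CALU knockdown column differs from its title by a letter. The members and lists were chosen with earlier results of these data known.

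CPM used library totals. In R 4.3.3, edgeR 4.0.16 (filterByExpr, TMM, robust quasi-likelihood) was fitted to all 12 libraries with terms for state and line (6 residual degrees of freedom, 14008 genes including all 249 members), with two-sided tests and Benjamini-Hochberg adjustment at 0.05. The script was tested on simulated data. Lines pair the libraries, per the labels. After state means were removed, libraries of a line correlated at 0.590 to 0.843 across genes (12 pairs), and different lines at -0.415 to -0.0363 (36 pairs). Precision is limited by depth (21.2 to 91.8 M reads) and by 1 library per line and state. Alternatives were other scalings and filters, DESeq2 1.42.0, limma 3.58.1 voom, no line term, the 2 compared states alone, each line left out, other CPM minimums and a 1.5-fold margin.

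Named genes are PRKCI and, of the members, the 12 with the widest weakest gap, the 8 with most reads, 4 of smallest p per direction against parental cells, 4 for the line term, those at the thresholds, and up to 4 per list. Not all are printed. Other list members are named without values. Promoters come from RefSeq (GRCh38.p14), matched by symbol. Not every gene called in these comparisons is named here.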

Additional observations from a re-analysis of the deposited data

Results flagged for a closer look

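Among 39 members with printed values, 3 states of 4 libraries each were examined for a library far from the other 3 (Dixon's test of the gap to the nearest library over the whole range, at its 95% value for 4). Of 117 groups, 14 in 8 genes had one. The 4 libraries of a group are different lines, and the 3 states of a gene share those lines. Some of the genes were named for their line differences. The nominal rate of the test therefore does not apply, and the count is a description. CHAGO was the library apart in 9 of the 14. For GINS3 it stood above the other lines in knockdown TICs (26.5 CPM), TICs (19.5 CPM) and parental cells (26.2 CPM). FANCM was high in CHAGO TICs (123 CPM) and CHAGO parental cells (167 CPM). CSE1L was high in CHAGO knockdown TICs (1468 CPM) and CHAGO TICs (1358 CPM), and SLMO2 likewise (706 CPM in knockdown TICs and 612 CPM in TICs). PLEKHH1 was high in H1299, in knockdown TICs (47.4 CPM) and in TICs (8.25 CPM). CALU knockdown TICs stood apart for RASGRF2 (4.44 CPM) and NRG1 (86.7 CPM), and H1703 knockdown TICs for DNAJC7 (345 CPM).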

How the results depend on the processing

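The set depends on the scaling. In place of 249 genes, TMM gave 237, DESeq2 size factors 214 and the authors' mode-normalized values 139; 110 members met the rule under all 4 scalings. A 1.5-fold margin left 12, and 3 lines in place of 4 gave 480 to 618.

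Calls in knockdown TICs against parental cells numbered 5, against 9 at an adjusted p of 0.10, 8 with DESeq2 size factors, 395 with DESeq2, 152 with voom, 20 with mode-normalized values, 0 with the compared states alone and 0 to 2 with 1 line left out (0 without H1703, H1299 or CALU). Members called were 0, and 2 with DESeq2 or voom. TICs against parental cells gave 4 calls, against 11 at 0.10, 509 with DESeq2, 170 with voom, 43 with mode-normalized values, 0 with the compared states alone and 0 to 0 with 1 line left out. Knockdown TICs against TICs gave 2, against 1 at a mean CPM of 1, 11 with DESeq2, 11 with voom, 1 with mode-normalized values, 0 with the compared states alone and 0 to 1 with 1 line left out. Without the line as replicate block, calls were 0 in all 3 comparisons and the members' median log2 fold change was -0.10.

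That median, -0.17 over parental cells, ran from -0.214 to -0.0715 with 1 line left out, and was -0.10 with mode-normalized values and -0.42 at the 1.5-fold margin. Members called for the line term, 145, were 94 to 118 with 1 line left out (94 without H1703, 95 without CHAGO). For 8 single members against parental cells, 100 of 104 alternatives kept direction and side of the threshold; PLCB4 (-2.08 and -2.07) and RBM3 (-1.44 and -1.22) passed it in DESeq2 and voom. The causes were not tested.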
